A study of Mus musculus with 12 samples.

Results

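The genes described here belong to families linked to the axoneme, the microtubule core of a motile cilium. They were taken from RNA sequencing of the mouse prefrontal cortex (PFC). They are called axonemal by family name, which does not show that each product is a part of the axoneme. They are the protein-coding genes of the count table whose symbols begin with Cfap, Dnah, Rsph or Tekt, and there were 58 of them among 41388 genes. The Cfap family (cilia and flagella associated proteins) contributed 30 genes, the Dnah family (axonemal dynein heavy chains) 15, the Rsph family (radial spoke proteins) 8 and the Tekt family (tektins) 5.

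In a motile cilium, dynein arms on the outer doublet microtubules slide the doublets against each other, and radial spokes pass signals to these arms from a central pair of microtubules with its projections. In the brain, such cilia are carried in tufts by the ependymal cells that line the ventricles, where their beating moves cerebrospinal fluid. Neurons and astrocytes carry a primary cilium, which lacks dynein arms and a central pair.

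The study asked how the gut microbiota bears on gene expression in the PFC of male Swiss Webster mice at 10 weeks of age. Conventionally raised controls (CON) and germ-free mice (GF), which lived in isolators without microbes, were compared with exGF mice, which were germ-free until postnatal day 21 and were then moved to the standard unit beside CON mice and acquired its microbes. All groups ate the same autoclaved diet. Each of the 4 libraries per group was made from polyA-enriched RNA of a pool of 2 to 3 animals, so that the spread given below is the spread between pools. GF and CON mice came from separate breeding pairs and exGF mice were taken from the isolators, so that the breeding line and the microbial status in early life cannot be told apart. Only GF mice stayed in isolators, so that housing and the presence of microbes at sampling cannot be told apart either. The GF libraries held 13280926, 23465074, 18983848 and 18653583 counts on genes. The CON libraries held between 22757169 and 29134760 counts, and the exGF libraries, which carry the names GFR1 to GFR4 in the table, between 22702599 and 28615407. No sample is labelled GFR. These libraries were taken as exGF by elimination, since CON and GF libraries matched their samples by name. Every exGF value rests on this.

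Levels are given as CPM, scaled by the trimmed mean of M-values (TMM), and as RPKM, which divides CPM by the exon length in kilobases, where genes are compared with each other. Markers of cortical neurons and of ependyma were compared first, which does not check the label of prefrontal cortex itself. The 14 markers of cortical neurons summed to between 10783.1 and 13392.1 CPM per library, and Camk2a, a kinase of excitatory synapses, took 34.2% of that sum. The 13 markers of ependyma summed to between 14.3 and 23.6 CPM. Foxj1, the transcription factor that switches on the motile cilium programme, had means of 1.98 ± 0.296 (CON; SD, n = 4), 2.33 ± 0.358 (GF) and 1.69 ± 0.424 CPM (exGF). Mcidas, a coiled-coil regulator that acts before Foxj1 in multiciliated cells, did not exceed 0.621 CPM in any library. The ependymal markers Ccdc153 and Tmem212 were at 0 in some libraries and highest in CON replicate 2, at 1.41 and 0.682 CPM. Rarres2 ranged from 2.29 to 5.41 CPM over the 12 libraries. Neuronal markers thus exceeded ependymal markers in every library, and several ependymal markers were close to the detection limit.

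The axonemal genes spanned a wide range of levels. Of the 58 genes, 4 had a mean of at least 20 CPM, 11 lay between 5 and 20, 21 between 1 and 5 and 22 under 1 CPM. The 4 most abundant made up 51.3% of the summed CPM. Per length of exon, Cfap36 stood first with 29.7 ± 3.29 RPKM (SD over 12 libraries). It encodes a protein that binds the ciliary GTPase Arl3. Cfap298, whose product is needed to assemble dynein arms, followed with 18.2 ± 1.55 RPKM, and Cfap20, which encodes a conserved protein of ciliary microtubules, with 10.2 ± 0.782. These 3 ranges did not overlap at 1 SD. Rsph9, Tekt5 and Cfap97 came next at 5.86 ± 1.02, 5.68 ± 0.811 and 5.37 ± 0.701 RPKM and could not be separated by their spread. The reading for Cfap298 is uncertain, because 42.9% of its 31-base words also occur in other annotated genes.

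The dynein heavy chains were lower than these 6 genes. Among them, Dnah1 reached 1.0997 ± 0.140 RPKM, Dnah6 0.538 ± 0.122, Dnah5 0.340 ± 0.0829 and Dnah7a 0.253 ± 0.0807. Dnah5 encodes an outer arm heavy chain, and the other genes of this group encode inner arm chains. In the radial spokes, the spoke head gene Rsph1 stood at 3.47 ± 0.598 RPKM, and the stalk genes Rsph3b and Rsph3a at 1.80 ± 0.195 and 1.57 ± 0.267. Rsph3a and Rsph3b are near-identical copies that share 63.0% and 77.8% of their words with other genes, so that the split of reads between them is uncertain, and the same holds for Dnah7a, Dnah7b and Dnah7c. Of the tektins, filament proteins inside the doublets, Tekt2 stood at 0.721 ± 0.259 RPKM, Tekt1 at 0.549 ± 0.213 and Tekt4 at 0.143 ± 0.0634. The reading for Tekt2 is uncertain, because 20.8% of its exon bases overlap Gm12945 on the opposite strand and counting ignored strand. Tekt5, a tektin of sperm flagella, held 79.5% of the summed tektin CPM. No gene of the 58 had 3 or fewer counts in every library.

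Summed over the 58 genes, the CON libraries held 346, 359, 341 and 348 CPM. The GF libraries held 385, 358, 358 and 357 CPM, and the exGF libraries 377, 353, 361 and 355. The groups overlapped, with means of 348 ± 7.53, 364 ± 13.8 and 362 ± 10.8 CPM (SD, n = 4 each). For the sum of the 30 Cfap genes, every GF and every exGF library lay above every CON library, at 247 to 259 CPM in CON, 273 to 291 in GF and 262 to 289.98 in exGF libraries. Cfap36 took 30.5% of it. Without Cfap74, a choice made after the values were seen, the GF libraries (262 to 270.2 CPM) still lay above the CON libraries (238 to 253 CPM), while the exGF libraries (248 to 272 CPM) overlapped them. Cfap36 alone was higher in every GF library (86.4 to 97.8 CPM) than in every CON library (67.6 to 79.7 CPM). A Cfap sum without both Cfap74 and Cfap36 is not given here. Of the 21 tested Cfap genes, 12 had log2 fold changes below 0 in GF against CON mice, with a median of -0.06. The Dnah, Rsph and Tekt sums overlapped between all groups. Without the 4 most abundant genes and Cfap74, the sum was 165 in CON, 152 in GF and 169 in exGF mice, with ranges of 154 to 176, 143 to 163 and 160.2 to 176 CPM. In bulk tissue, fewer cells of a type and less RNA per cell cannot be told apart.

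A total of 42 of the 58 genes passed the filter on low counts in each comparison, and these were the same 42 genes. They comprised 21 Cfap, 12 Dnah, 6 Rsph and 3 Tekt genes. The 16 genes that did not pass had means of at most 0.325 CPM and at most 16 counts in any library, and the filter kept them out of the edgeR test. Dnah11, an outer arm heavy chain, and Rsph14 were singled out among them after the values were seen, because groups did not overlap, and no background share was worked out for genes with so few counts. Dnah11 had 12, 10, 11 and 10 counts in the CON libraries, 2, 6, 0 and 0 in GF and 1, 3, 5 and 8 in exGF libraries. In CPM, every GF and every exGF library of Dnah11 lay below every CON library. Rsph14 had 8, 11, 7 and 12 counts in CON and 0, 5, 3 and 1 in GF libraries, and in CPM these groups did not overlap either, whereas its exGF libraries overlapped CON. All 58 genes entered DESeq2 and the edgeR fit with no filter on low counts. Against CON, each of these called only Cfap74, so neither Dnah11 nor Rsph14 was called.

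**Figure D1:**
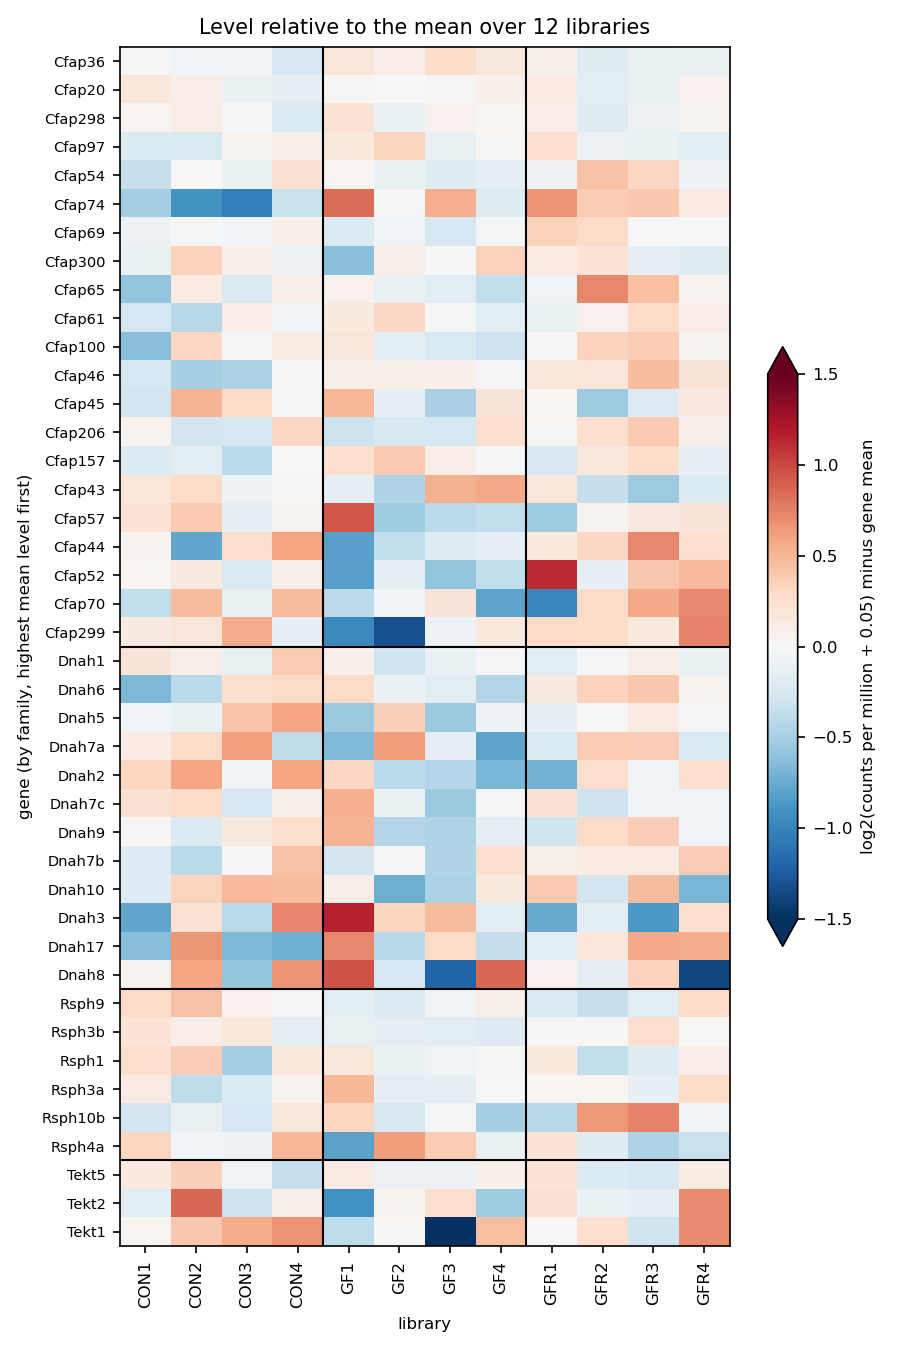
Level of the 42 tested axonemal genes (vertical, by family and falling mean level) in the 12 libraries (horizontal), as log2(CPM + 0.05) minus the mean of the gene over all libraries; red is higher and blue lower. Cfap74 is blue in all 4 CON libraries, and the low genes at the foot of each family scatter most between single libraries.

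Cfap74 was the only axonemal gene called in any comparison. It encodes a component of a projection on the central pair of microtubules (C1d in algal flagella), and lies on chromosome 4 at 155409190 to 155466823, plus strand (GRCm38, ENSMUSG00000078490). Its level was 8.04, 6.14, 5.59 and 9.10 CPM in the CON libraries. In GF mice it was 20.6, 11.3, 16.7 and 10.1 CPM, and in exGF mice 18.4, 14.98, 15.1 and 12.5 CPM. Every GF and every exGF library lay above every CON library, while GF and exGF overlapped throughout. The raw counts behind these levels ranged from 144 to 444.

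In exGF against CON mice, Cfap74 was higher by 1.07 on the log2 scale (SE 0.17), with an adjusted p of 0.0331 by the quasi-likelihood test of edgeR, adjusted after Benjamini and Hochberg for 15813 genes. In GF against CON mice its log2 fold change was 1.01 (SE 0.22), and the same edgeR test with Benjamini-Hochberg adjustment gave an adjusted p of 0.125, which missed the threshold of 0.1. Between exGF and GF mice the log2 fold change was 0.07 (SE 0.20; edgeR, Benjamini-Hochberg adjusted p = 0.959). The comparisons of GF and of exGF mice with CON used the same 4 CON libraries. The exGF call was lost when CON replicate 1, 2 or 3 or the exGF library GFR1, GFR2 or GFR3 was left out, with edgeR adjusted p-values of 0.112, 0.115, 0.139, 0.149, 0.104 and 0.124, while the log2 fold change stayed between 0.97 and 1.14.

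Cfap74 overlaps the 5′ part of 5830444B04Rik, a non-coding transcript on the opposite strand, over 4.55% of its exon bases. The libraries were stranded but the reads were counted without regard to strand, so that reads of the pair cannot be told apart where they overlap. Reads that were ambiguous between genes stayed out of the gene counts. 5830444B04Rik itself stood at 1.19, 1.45, 1.02 and 1.14 CPM in CON, 2.304, 1.61, 2.04 and 0.826 in GF, and 1.82, 1.86, 1.52 and 1.53 in exGF mice. Its exGF libraries lay above its CON libraries and its GF libraries overlapped them. The log2 fold change in exGF against CON mice was 0.48 (SE 0.23; edgeR, Benjamini-Hochberg adjusted p = 0.924). Of the genes within 150000 bases of Cfap74 on either side, 7 were tested in GF against CON mice and 8 in exGF against CON mice, and none was called or had an unadjusted p under 0.05 in either edgeR fit. Tmem52, the next gene after the end of Cfap74, had at most 18 counts in any library and log2 fold changes of -0.52 (SE 0.46) in GF and -0.41 (SE 0.46) in exGF against CON mice. Over all tested neighbours the log2 fold changes ran from -0.52 to 0.49 in GF and from -0.41 to 0.48 in exGF against CON mice.

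Other genes of the same central pair projection are Cfap46, Cfap54 and Cfap221, singled out after their values were seen. Cfap46 stood at 2.95, 2.52, 2.56 and 3.50 CPM in CON, at 3.79, 3.80, 3.76 and 3.52 in GF, and at 4.02, 4.06, 4.94 and 4.08 in exGF mice. The 3 groups did not overlap and lay in the order CON, GF, exGF, although the lowest GF library and the highest CON library were nearly equal. The log2 fold change was 0.37 (SE 0.18) in GF and 0.56 (SE 0.17) in exGF against CON mice, with edgeR Benjamini-Hochberg adjusted p-values of 0.605 and 0.610, so neither was called. Cfap54, at 1.19 ± 0.194 RPKM about level with Cfap74 at 1.24 ± 0.486, had group means of 16.8 ± 2.78 (CON), 16.1 ± 1.12 (GF) and 19.4 ± 3.57 CPM (exGF), with overlapping libraries. Cfap221 had at most 8 counts in any library and was not tested.

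**Figure D2:**
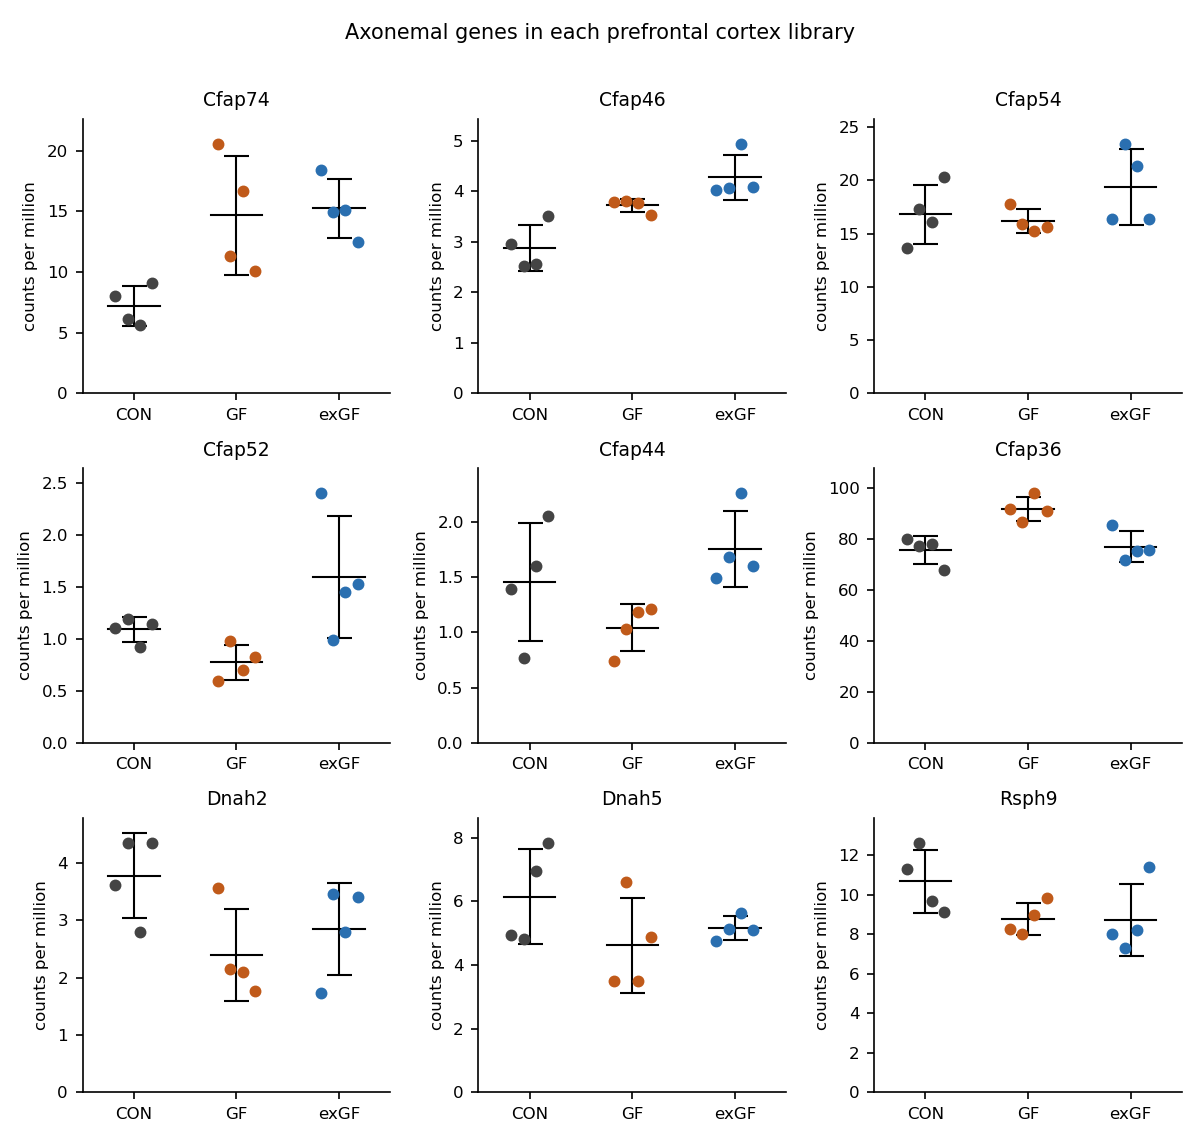
CPM (vertical axes, from 0) of 9 axonemal genes in the 4 libraries of each group (points), with the group mean and SD (lines and bars). All GF and exGF points of Cfap74 lie above 10 CPM and the highest CON point at 9.10, whereas the Dnah2, Dnah5 and Rsph9 points of the 3 groups overlap.

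The comparison of GF with CON mice asks what lifelong absence of microbes does. None of the 42 tested genes was called by edgeR at an adjusted p under 0.1, beside 39 of 15542 genes in all (0.251%). DESeq2 called 1 gene, Cfap74, and limma-voom none. At an unadjusted p under 0.05 there were 3 genes, or 7.14% of those tested, beside 8.69% of all tested genes. DESeq2 had 5 of 58 genes at that level. For DESeq2 and limma-voom no share over all genes is given here, so their counts cannot be set against a background. The groups did not overlap for 3 genes (7.14%), beside 5.08% of all. These shares were close to the background. The median log2 fold change was -0.10 over the axonemal genes and 0.01 over all tested genes, and 28 of the 42 values were below 0. With a library left out, this median ranged from -0.15 without GF replicate 1 to -0.03 without CON replicate 2.

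After Cfap74, the smallest p-values belonged to Cfap36 and Dnah2. Cfap36 was at 79.7, 77.2, 77.96 and 67.6 CPM in CON and at 91.5, 86.4, 97.8 and 90.8 in GF mice. All GF libraries lay above all CON libraries, by a log2 fold change of 0.28 (SE 0.08; edgeR, Benjamini-Hochberg adjusted p = 0.306). In exGF mice Cfap36 was at 85.5, 71.5, 75.1 and 75.7 CPM, with 3 libraries inside the CON range and GFR1 above it. Dnah2, an inner arm heavy chain, was at 3.61, 4.35, 2.80 and 4.34 CPM in CON and at 3.57, 2.15, 2.09 and 1.76 in GF mice. GF replicate 1 lay among the CON libraries and the other GF libraries below them, with a log2 fold change of -0.68 (SE 0.24; edgeR, Benjamini-Hochberg adjusted p = 0.417). Dnah10, which works in the same inner arm as Dnah2, was at 2.33 ± 0.475 in CON and 1.64 ± 0.483 CPM in GF mice, and Rsph9, a spoke head gene, at 10.7 ± 1.60 and 8.77 ± 0.829 CPM. The groups overlapped for both genes. Over the Dnah family, 9 of 12 tested genes had values below 0 with a median of -0.14, and all 3 tested tektins had values below 0. None of these genes was called.

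The comparison of exGF with CON mice asks what remains once microbes are acquired after weaning. Of the 42 tested genes, 1 was called by edgeR, Cfap74, beside 11 of 15813 genes in all (0.0696%). DESeq2 and limma-voom each called 1 as well, for which no share over all genes is given. At an unadjusted p under 0.05, DESeq2 had 4 of 58 genes, also without such a share. There were 2 genes at that level in edgeR, Cfap74 and Cfap46, or 4.76%, beside 5.33% of all tested genes. The same 2 genes had groups without overlap (4.76%), beside 3.31% of all. The median log2 fold change was 0.02, beside -0.01 over all tested genes, with 22 values above and 20 below 0.

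The next genes in exGF against CON mice were Cfap65, Cfap52, Rsph9 and Rsph4a, and none was called. Cfap65, which is needed for the sperm flagellum, was at 5.22 ± 1.15 CPM in CON and 7.15 ± 1.85 in exGF mice. Rsph4a, a spoke head gene, was at 2.89 ± 0.581 in CON and 2.22 ± 0.482 CPM in exGF mice. Rsph9 was at 8.73 ± 1.83 CPM in exGF mice, about its GF level. The differences were within the overlap of the libraries in each case.

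The direct comparison of exGF with GF mice asks what changed with colonization, which cannot be told apart from the move out of the isolators. No axonemal gene was called by edgeR, DESeq2 or limma-voom, and edgeR called 0 of 15569 genes in all (0.0%). At an unadjusted p under 0.05 there were 7 genes (16.7%), beside 6.65% of all tested genes. Limma-voom had 8 of 42, and DESeq2, which tested all 58 genes, had 6. No share over all genes is given for these tools, so their counts cannot be compared with a background. The groups did not overlap for 6 genes (14.3%), beside 3.32% of all. The median log2 fold change was 0.17, beside -0.00 over all tested genes. It was 0.06 over the 36 genes with at least 10 counts in every library and 0.11 over the 36 genes with a mean of at least 1 CPM. The first filter removed genes mostly through low counts in GF libraries, and most of the genes removed had values above 0, so it is not independent of the difference measured. With a library left out it ranged from 0.10 without GFR3 to 0.23 without GF replicate 1.

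The genes behind these counts were mostly higher in exGF mice. Cfap52, a protein inside the doublet microtubules, was at 0.595, 0.984, 0.698 and 0.826 CPM in GF and at 2.402, 0.993, 1.45 and 1.53 in exGF mice. The groups lay apart by a narrow gap between GF replicate 2 and GFR2, and the log2 fold change was 1.01 (SE 0.32; edgeR, Benjamini-Hochberg adjusted p = 0.736). The CON libraries of Cfap52 lay between 0.920 and 1.19 CPM. Part of its sequence, 8.36% of its exon bases, is shared with a gene on the opposite strand, 9130017K11Rik.

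Cfap44, which tethers an inner dynein arm to the doublet, was at 0.743, 1.03, 1.18 and 1.21 CPM in GF and at 1.49, 1.68, 2.26 and 1.60 in exGF mice. These groups did not overlap, while the CON libraries spread over both, from 0.767 to 2.06 CPM. The log2 fold change was 0.74 (SE 0.26; edgeR, Benjamini-Hochberg adjusted p = 0.736). Cfap69, needed for sperm flagella, was at 10.6 ± 0.820 CPM in GF and 13.0 ± 1.64 in exGF mice, and Cfap65 at 5.19 ± 0.637 and 7.15 ± 1.85. Cfap299 also had an unadjusted p under 0.05, at a log2 fold change of 0.88. In the other direction, Cfap36 had a log2 fold change of -0.25 (SE 0.08), and Dnah3, an inner arm heavy chain near 1 CPM that overlaps Lyrm1 on the opposite strand, one of -0.84 (SE 0.37). The edgeR Benjamini-Hochberg adjusted p-values of these genes were at least 0.736.

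Other genes of the motile axoneme were taken from a list. Of 48 listed genes, such as the light chain gene Dnal1, 38 were tested in GF, 39 in exGF against CON mice and 37 between exGF and GF mice, and none was called by edgeR. Their median log2 fold changes were -0.02, -0.03 and 0.01. At an unadjusted p under 0.05, 5, 1 and 3 of them were found, or 13.2%, 2.56% and 8.11%, beside 8.69%, 5.33% and 6.65% of all tested genes. The groups did not overlap for 13.2%, 5.13% and 2.70%, beside 5.08%, 3.31% and 3.32% of all. Dnal1, also a gene of many tissues, was the most abundant, at 128 ± 5.33 CPM in CON mice.

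The regulators of ciliogenesis were not called either, with 11, 13 and 11 of 15 genes tested in the 3 comparisons. Their median log2 fold changes were -0.01, 0.11 and 0.04, and 2, 2 and 1 had an unadjusted p under 0.05, or 18.2%, 15.4% and 9.09%, beside the same shares of all tested genes as above. The groups did not overlap for 0.0%, 15.4% and 18.2% of the tested regulators, beside 5.08%, 3.31% and 3.32% of all. Gmnc, a geminin family gene that starts the multiciliated cell programme and was singled out after its values were seen, was at 0.738, 0.554, 0.545 and 0.685 CPM in CON, 0.818, 1.83, 0.591 and 1.54 in GF, and 1.08, 1.47, 1.41 and 1.06 in exGF mice. All exGF libraries lay above all CON libraries and the GF libraries spread over both ranges. Its log2 fold change was 0.95 (SE 0.37) in GF and 0.98 (SE 0.27) in exGF against CON mice, with edgeR Benjamini-Hochberg adjusted p-values of 0.477 and 0.537. Foxj1 differed from CON by 0.23 (SE 0.22) in GF and -0.23 (SE 0.24) in exGF mice on the log2 scale. Rfx3, a factor that binds promoters of cilium genes, was the most abundant regulator, at 42.9 ± 1.06 CPM in CON and 42.6 ± 14.3 in GF mice.

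Genes of the primary cilium and of intraflagellar transport, the cargo system that builds every cilium, were far more abundant. All 36 were tested and none was called, with median log2 fold changes of -0.01, 0.02 and 0.03 in the 3 comparisons. At an unadjusted p under 0.05, edgeR found 5 of them (13.9%) in GF against CON mice, beside 8.69% of all tested genes, and 0 in each other comparison, beside 5.33% and 6.65%. Their sum was 1622 ± 63.3 (CON), 1638 ± 32.3 (GF) and 1640.3 ± 70.6 CPM (exGF), and Kifap3, a subunit of the kinesin-2 motor, took 24.1% of it.

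Markers of cells and tissues near the dissected cortex differed between libraries and, for some lists, between groups. The ependyma list had 6 tested genes in each comparison, none called and none with an unadjusted p under 0.05. Its median log2 fold changes were 0.14, -0.16 and -0.27, beside -0.10, 0.02 and 0.17 for the axonemal genes. The axonemal value of 0.02 became -0.0195 without CON replicate 4, so its sign was not stable. The most abundant gene of the ependyma list was 1700016K19Rik. The choroid plexus list, with 6, 7 and 7 tested genes and none called, had median log2 fold changes of -0.34, -0.02 and 0.29 and summed to 10.99, 12.3, 11.2 and 11.1 CPM in CON, 19.9, 7.65, 6.17 and 7.49 in GF, and 7.21, 8.03, 12.3 and 11.6 in exGF mice. GF replicate 1 stood apart through Ttr, the carrier protein of the choroid plexus, at 9.29 CPM. Kl, the most abundant gene of the list, averaged 3.77 ± 0.354 (CON), 2.27 ± 0.628 (GF) and 2.35 ± 0.354 CPM (exGF), and Folr1 did not exceed 0.385 CPM. Cfap74 in GF mice was highest in GF replicate 1, and without this library its log2 fold change against CON was 0.81.

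Striatal markers were high in 2 libraries. The list summed to 514 CPM in CON replicate 2 and 491 in GFR4, and to between 255 and 323 in the other 10 libraries, with Ppp1r1b as its most abundant gene. With both libraries left out, a choice made after seeing the data, Cfap74 was called in exGF against CON mice at a log2 fold change of 1.11 (edgeR, Benjamini-Hochberg adjusted p = 0.0695). Without CON replicate 2 alone the call was lost, at a log2 fold change of 1.01 (edgeR, Benjamini-Hochberg adjusted p = 0.115). Without GFR4 alone it was kept, at 1.17 (edgeR, Benjamini-Hochberg adjusted p = 0.0196). No striatal gene and no gene of the subventricular neuroblast list, led by Tubb3, was called in any comparison.

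In the meningeal list, all 13 genes had values below 0 in GF and in exGF against CON mice, with medians of -0.46 in each. At an unadjusted p under 0.05, edgeR found 76.9% of them in each comparison, beside 8.69% and 5.33% of all tested genes. Slc6a13 and Col1a2 were called in GF mice, at log2 fold changes of -0.94 (SE 0.13) and -0.69 (SE 0.11). Of all tested genes, 0.251% were called in that comparison. Igf2 was the most abundant gene of the list. In the mature oligodendrocyte list, led by Mbp, the genes called higher in GF against CON mice included Mbp, Mog, Mobp, Cldn11, Ermn and Mal, and the list median was 0.78. None was called in the other comparisons. Between exGF and GF mice, however, all 12 genes had values below 0 with a median of -0.60, and 66.7% had an unadjusted p under 0.05, beside 6.65% of all tested genes. The astrocyte list, led by Slc1a2, and the cortical neuron list had no called gene. The cortical neuron sum was nevertheless higher in every GF library (12548.9 to 13392.1 CPM) than in every CON library (10783.1 to 12259.2 CPM), and 12 of its 14 genes had values above 0. The part of these cells in the values of the axonemal genes was not tested.

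**Figure D3:**
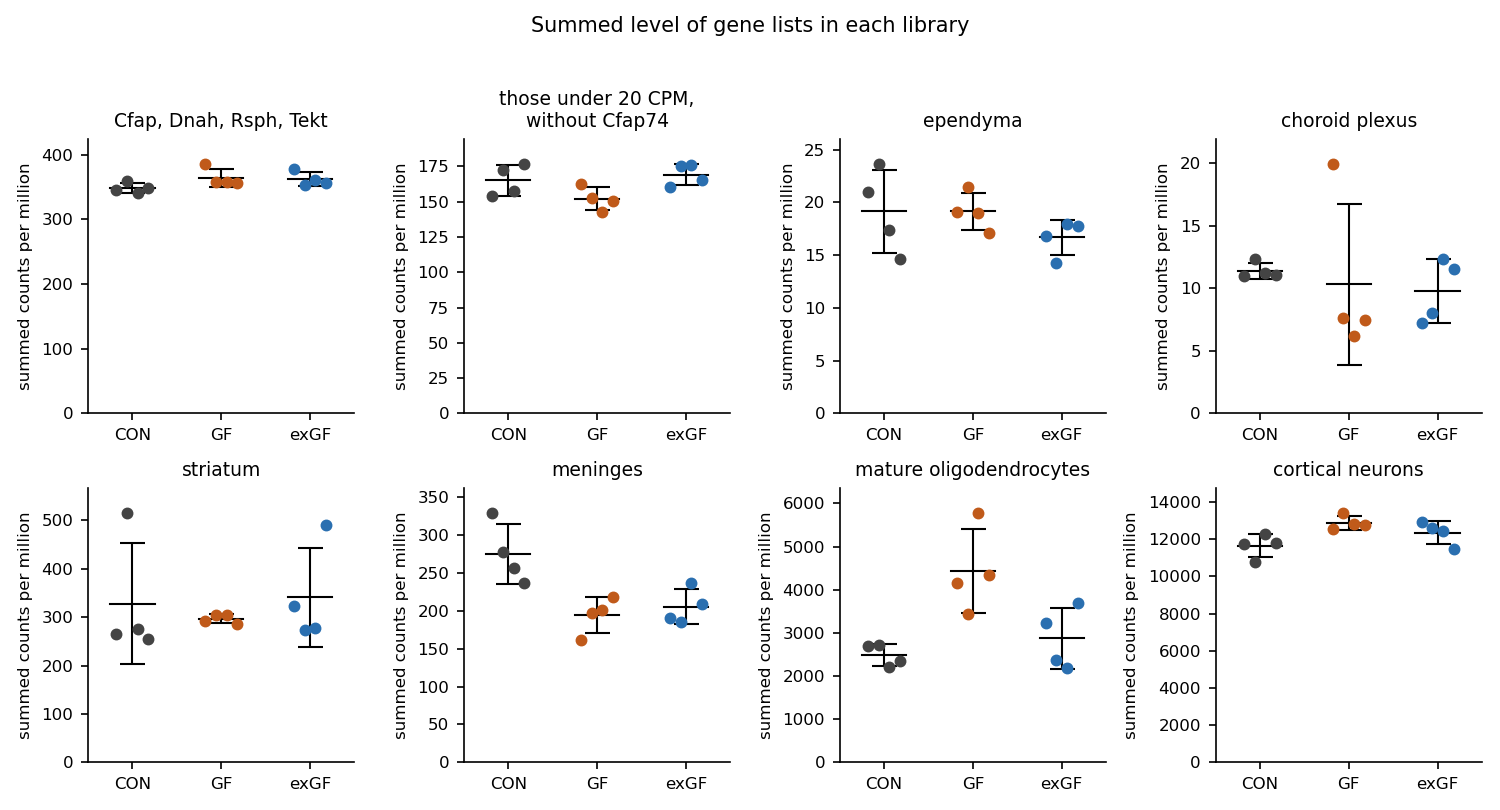
Summed CPM (vertical axes, from 0) of 8 gene lists in the 4 libraries of each group (points), with the group mean and SD (lines and bars). The axonemal and ependymal sums overlap between groups, CON replicate 2 and GFR4 stand apart in the striatal list, GF replicate 1 in the choroid plexus list, and in the oligodendrocyte list every GF library lies above every CON library.

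The members were also compared by their promoters, since RFX factors and FOXJ1 are known to bind upstream of many ciliary genes. RefSeq windows of 250 bases before to 50 after the start of a gene (GRCm38.p6) were found for 47 of the 58 genes, 54 windows in all. The X-box, the palindromic motif bound by RFX factors, was searched on both strands and occurred in 13% of these windows, beside 1.53% of all 32851 windows. It was found in 6 genes, Cfap298, Cfap44, Cfap45, Cfap58, Rsph3b and Tekt2. The hexamer GTTGCC, one arm of the X-box and thus overlapping it in part, occurred in 37% of the windows, beside 12.5% of all. The forkhead core TGTTTAC occurred in 7.41%, beside 3.65% of all. The matches that lie wholly before the start are shown to let the motif be seen in its context, with the X-box in capitals and up to 8 bases on either side.
Cfap44, chr16:44394764-44394793, plus strand: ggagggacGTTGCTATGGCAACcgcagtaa
Cfap45, chr1:172521103-172521129, plus strand: gttcttggGTTGCTATGGTAACgcgtc
Cfap58, chr19:47937645-47937673, plus strand: gcgtggcgGTTGCCAGGCGACcgaagacg
Tekt2, chr4:126325697-126325725, minus strand: agggggcgGTTGCTCGGCAACcagagccg
Cfap298, chr16:90934896-90934926, minus strand: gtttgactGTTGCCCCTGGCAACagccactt
Cfap298, chr16:90935016-90935045, minus strand: gggttttgGTTGCCCGGGCAACagctactt
All of these matches lie within 188 bases of the start. Among the genes that carry them, Cfap298 had 18.2 RPKM and Cfap58, which was not tested, 0.0770. None of the 6 genes was called in any comparison. Cfap74, which was called, had no X-box in its windows. Each of its windows holds 2 copies of GTTGCC, and the copy on the strand of the gene lies after the first listed start. The 250 bases before that start hold the copy on the opposite strand, printed in capitals.
Cfap74, chr4:155408940-155409189, plus strand: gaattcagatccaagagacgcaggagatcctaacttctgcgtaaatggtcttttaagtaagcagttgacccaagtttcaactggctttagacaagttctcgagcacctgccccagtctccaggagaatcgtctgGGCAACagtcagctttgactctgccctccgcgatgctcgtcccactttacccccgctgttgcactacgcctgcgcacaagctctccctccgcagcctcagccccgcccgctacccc
A match of letters is a description of these windows and not of binding.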

How the data were processed

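Total RNA was extracted and pooled, and polyA-enriched RNA of the PFC pools was sequenced in 12 libraries by a commercial service in paired ends. According to the methods and the submitters' processing notes, the authors trimmed reads with Trimmomatic 0.32, aligned them to GRCm38.p3 with STAR and counted them per gene with HTSeq 0.6.0 on Ensembl models without regard to strand. The deposited counts are raw read counts per gene. Rows without a gene stayed out of library sizes. Among them were pairs outside genes (4.57% to 7.31% of a library), pairs ambiguous between genes (1.10% to 1.32%) and alignments that were not unique (13.0% to 19.2%). Symbols and exons came from the GENCODE M21 annotation of GRCm38.

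Each pair of groups was fitted across all genes with edgeR 4.0.16 in R 4.3.3 (filterByExpr, TMM, quasi-likelihood test, Benjamini-Hochberg adjustment), with 0.1 as the limit on adjusted p for a call. The fit was also run on simulated data, but that outcome is not reported here and lends no weight to the calls. Alternatives used limma 3.58.1, DESeq2 1.42.0, other scalings and filters, and libraries left out. CPM are TMM-scaled over all 12 libraries.

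Named genes are those called, the 4 per family highest in RPKM, the 6 with the smallest p per comparison, and fixed markers. Other members were named after their values were seen, for a small p, groups without overlap, a shared structure or sequence, or a promoter motif. Of the 11 marker lists, the most abundant and the called genes are named, except for a result that is not reported here. Of 205 list entries, 201 were used. Members and lists were chosen with earlier results of these data known.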

Additional observations from a re-analysis of the deposited data

Results flagged for a closer look

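Within each group of 4, the gap between the highest or lowest library and its neighbour was divided by the range of the group, and values above Dixon's critical value of 0.8297, found by simulation, are given here. Of 147 groups checked, 12 exceeded it, and chance alone does so in about 1 in 20. Some of these groups share genes and are not independent.

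GF replicate 1, the library with the fewest counts, stood apart in 4 measures. The summed CPM of the 58 axonemal genes was 385 there and at most 358 in the other GF libraries (gap over range 0.958). Ttr was 9.29 CPM against at most 0.671 (0.967), Kl 3.20 against at most 2.04 (0.838), and the choroid plexus sum 19.9 against at most 7.65 CPM (0.893). Ttr and Kl are part of the choroid plexus sum, so the 4 measures are not independent.

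CON replicate 2 stood apart in the striatal sum, at 514 CPM against at most 276 in the other CON libraries (0.918), and in the choroid plexus sum, at 12.3 against at most 11.2 CPM (0.8300). Folr1 was low in CON replicate 4, at 0.0381 CPM (0.886).

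GFR3 was the highest exGF library for Cfap46, at 4.94 CPM (0.928), for Rsph3b, at 6.64 CPM (0.952), and for Tmem212, at 0.318 CPM (0.893). GFR1 was highest for Cfap97, at 32.8 CPM (0.842). Cfap46 was lowest in GF replicate 4, at 3.52 CPM (0.841), where the other GF libraries lay between 3.76 and 3.80.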

How the results depend on the processing

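In GF against CON mice, edgeR called none of the axonemal genes. DESeq2, a single edgeR fit of all 12 libraries and edgeR with no filter on low counts each called 1, which was Cfap74. With a library left out the count ranged from 0 to 1. In exGF against CON mice, the count of 1 ranged from 0 to 1 with a library left out, and the calls were lost without CON replicate 1, 2 or 3, GFR1, GFR2 or GFR3. Fewer libraries enter these fits. Every other alternative kept 1 call, among them 1 chosen after seeing the data, with CON replicate 2 and GFR4 left out. Between exGF and GF mice, no alternative called a gene.

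The median log2 fold change of exGF against GF mice moved from 0.17 to 0.0649 when at least 10 counts were required in every library, which leaves 36 genes, and to 0.106 over the 36 genes with a mean of at least 1 CPM. With a library left out it ranged from 0.0988 without GFR3 to 0.230 without GF replicate 1, and was 0.101 without GF replicate 2, 0.107 without GFR2 and 0.109 without GF replicate 4. The median in GF against CON mice ranged from -0.151 without GF replicate 1 to -0.0302 without CON replicate 2, and that in exGF against CON mice from -0.0195 to 0.0321. The summed CPM moved by less than 1 SD without TMM.

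Of 296 fold changes of named genes under alternatives, 281 kept their direction and side of the threshold. The others all belonged to Cfap74, with 6 calls lost in exGF against CON mice, 6 gained in GF against CON mice and 3 reversals. The other named genes were not called to begin with, so their staying uncalled says little about stability. Reversals concerned Cfap74 between exGF and GF mice, where the log2 value of 0.07 became -0.0426 without GF replicate 2, -0.0774 without GF replicate 4 and -0.0347 without GFR1, in a range up to 0.271 without GF replicate 1. The cause was not tested. Its value in GF against CON mice ranged from 0.81 to 1.16 with adjusted p from 0.00139 to 0.353, and in exGF against CON mice from 0.97 to 1.20 with adjusted p from 3.72e-06 to 0.149.

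The replicate numbers of CON and GF libraries were not taken to pair the samples. Same-numbered libraries had deviations correlated between -0.0851 and 0.0478, and differently numbered ones between -0.1 and 0.128. These correlations show no pairing but cannot exclude it. With a replicate block, 0 genes were called and the median log2 fold change in GF against CON mice was -0.0964. GF replicate 1, with 13280926 counts, is the least precise library for genes under 1 CPM.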
